A study of Mus musculus and Rattus norvegicus with 32 samples.

Results

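Transcripts of 10 genes of mitochondrial fatty acid oxidation (Cpt1a, Slc25a20, Cpt2, Acadvl, Acadl, Acadm, Acads, Hadhb, Eci1 and Decr1) were followed in the livers of mice and rats given trichloroethylene (TCE), a chlorinated solvent, or its corn oil vehicle. Members were all probe sets whose only annotated gene symbol was 1 of these 10, which gave 28 of 21162 probe sets: 13 of 12422 on the mouse array and 15 of 8740 on the rat array. All 10 genes were found in each species, among 8251 mouse and 4736 rat genes in all. Male B6C3F1 mice and male SD rats were gavaged with TCE at 1500 mg per kg body weight in corn oil, or with corn oil alone, once at 8 weeks of age or daily for 14 days until 10 weeks of age. Tissue was collected 18 h after the final gavage, and poly-A RNA of each of the 8 groups was hybridised to 4 Affymetrix arrays, 32 in all. TCE animals and oil animals therefore shared gavage, vehicle, sex, strain and age within a species and schedule. The study's title asks how the response to TCE differs between mouse and rat. The sources give 4 samples a group and do not say whether each was 1 animal, so p-values measure only the spread between these samples, which may be technical.

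Mitochondrial beta-oxidation shortens fatty acids to acetyl-CoA, which the liver burns or turns into ketone bodies. Long chains enter by the carnitine shuttle: Cpt1a on the outer membrane makes acylcarnitine and is the step that malonyl-CoA inhibits, Slc25a20 exchanges it across the inner membrane, and Cpt2 restores the acyl-CoA in the matrix. Acyl-CoA dehydrogenases of descending chain length (Acadvl, Acadl, Acadm, Acads) then open each cycle, Hadhb closes it as the thiolase subunit of the trifunctional protein, and Eci1 and Decr1 rearrange the double bonds of unsaturated fatty acids. Many of these genes are known targets of the nuclear receptor PPARα in rodent liver, and metabolites of TCE are known to activate that receptor.

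The authors deposited ratios in which the 4 oil arrays matched for species and schedule have a median of 1, so values near 1 stand for the oil level and no signal level can be read from them. Replicates of a typical probe set (the median over all) varied with an SD of 0.419 log2 units in mouse and 0.457 in rat. Of the 32 arrays, 10 stood apart in the 3′ minus 5′ log2 value of the array's Gapdh control, a measure of RNA integrity: it was above 1 on 3 of 4 TCE arrays of mouse after 1 dose, on 3 of 4 TCE arrays and 1 of 4 oil arrays of mouse after 14 days, on 1 of 4 TCE arrays of rat after 1 dose and on 2 of 4 TCE arrays of rat after 14 days. Because it was taken from the deposited ratios, this Gapdh value is relative to the matched oil arrays and is not the array's own 3′ to 5′ ratio. TCE and oil means of that value differed by 1.54 (mouse, 1 dose), 0.78 (mouse, 14 days), 0.30 (rat, 1 dose) and 1.08 (rat, 14 days), with two-sided exact permutation p of 0.0571, 0.371, 0.886 and 0.0571, where 0.0286 is the smallest that 4 against 4 arrays allow. That smallest p was reached by the same value of the actin control in mouse after 1 dose (TCE minus oil, 0.76) and by the log2 ratio of the hybridization controls, which are added to the sample, in mouse after 1 dose (-0.62) and after 14 days (-1.15). The 6 of 6 hepatocyte markers had mean log2 ratios of -0.56 to -0.33 on mouse TCE arrays against -0.12 to 0.07 on oil arrays after 1 dose, and of -0.79 to -0.32 against -0.21 to 0.09 after 14 days. Part of that mean was 1 noisy gene, Hnf4a, with changes of -1.80 ± 0.60 and -1.38 ± 0.60 (limma adjusted p = 0.0807 and 0.151). All 6 changes were negative on both schedules. Their medians were -0.20 after 1 dose and -0.43 after 14 days, and the highest were -0.07 and -0.26. After 14 days Tat fell with a limma adjusted p under 0.05, as did 9.42% of all genes. On rat arrays the mean of these markers was -0.19 to 0.01 with TCE against -0.12 to 0.15 with oil after 1 dose. After 14 days it was -0.17 to 0.01 against -0.18 to 0.14. Among markers of other cell types, array means were apart in mouse after 1 dose for lymphocytes (6 of 6 measured; -0.82 to -0.37 with TCE against -0.25 to 0.40 with oil) and erythroid cells (2 of 3; -0.75 to -0.50 with TCE against -0.24 to 0.30 with oil). They were also apart in rat after 14 days for Kupffer cells and macrophages (4 of 8; -0.83 to -0.28 with TCE against -0.15 to 0.17 with oil). The part of the marker levels and array controls in the members' results was not tested, beyond the fits with the Gapdh value. Markers of exocrine pancreas (5 of 11 measured in mouse, 9 in rat) reached array means of 4.07 with TCE and 3.02 with oil in mouse after 1 dose, 2.31 with TCE and 0.14 with oil in mouse after 14 days, and 0.48 with TCE and 5.35 with oil in rat after 1 dose; in rat after 14 days they reached 0.32 with TCE and 0.45 with oil. Changes of the members, and those of pathway genes past the threshold, were also computed without the 10 arrays and without each array in turn. In bulk tissue, fewer hepatocytes and less RNA per hepatocyte cannot be told apart.

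Cpt2 and Eci1 were the members that rose with TCE in both species after 14 days, and Cpt2 had already risen after 1 dose in mouse. A gene was called where the adjusted p of limma's test was under 0.05 (Benjamini-Hochberg over all probe sets of the species). In mouse after 1 dose, 1 of 10 members was called higher (Cpt2) and 0 lower, against 4.74% and 4.57% of all genes. In mouse after 14 days, 2 of 10 were called higher (Cpt2 and Eci1) and 0 lower, against 2.39% and 9.42% of all genes. In rat after 1 dose, 0 were called higher and 1 lower (Acads), against 1.16% and 0.528% of all genes. In rat after 14 days, 3 were called higher (Cpt2, Eci1 and Decr1) and 0 lower, against 2.32% and 0.633% of all genes.

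Seen as a group, the members sat above the general run of genes in 3 of the 4 comparisons. Their median log2 change was 0.28 in mouse after 1 dose and 0.30 after 14 days, beside -0.08 and -0.16 over all genes. In rat it was 0.07 after 1 dose and 0.69 after 14 days, beside 0.12 and 0.04 over all genes, and the 1-dose rat median turned to -0.05 when arrays were centred on their medians. Genes whose 4 TCE arrays all lay above the 4 oil arrays numbered 3 of 10 in mouse after 1 dose (Cpt2, Acadm and Hadhb), where 9.08% of all genes lay so. The count was 4 of 10 in mouse after 14 days (Cpt2, Acads, Hadhb and Eci1; 4.87% of all genes), 0 of 10 in rat after 1 dose (8.8%) and 6 of 10 in rat after 14 days (Cpt1a, Slc25a20, Cpt2, Hadhb, Eci1 and Decr1; 8.55%). Below all oil arrays lay 0 of 10 members in mouse after 1 dose (10.4% of all genes), 0 of 10 in mouse after 14 days (13.9%), 1 of 10 in rat after 1 dose (Acads; 4.12%) and 1 of 10 in rat after 14 days (Acadvl; 4.58%). The plot of values array by array shows these positions, with the members in the order of the pathway. The members were chosen with earlier results of these data known, so setting them beside all genes is a description. Except for Acadvl in mouse, the probe set standing for each member also varied less between replicates than a typical probe set. The shares of all genes do not allow for that.

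**Figure D1:**
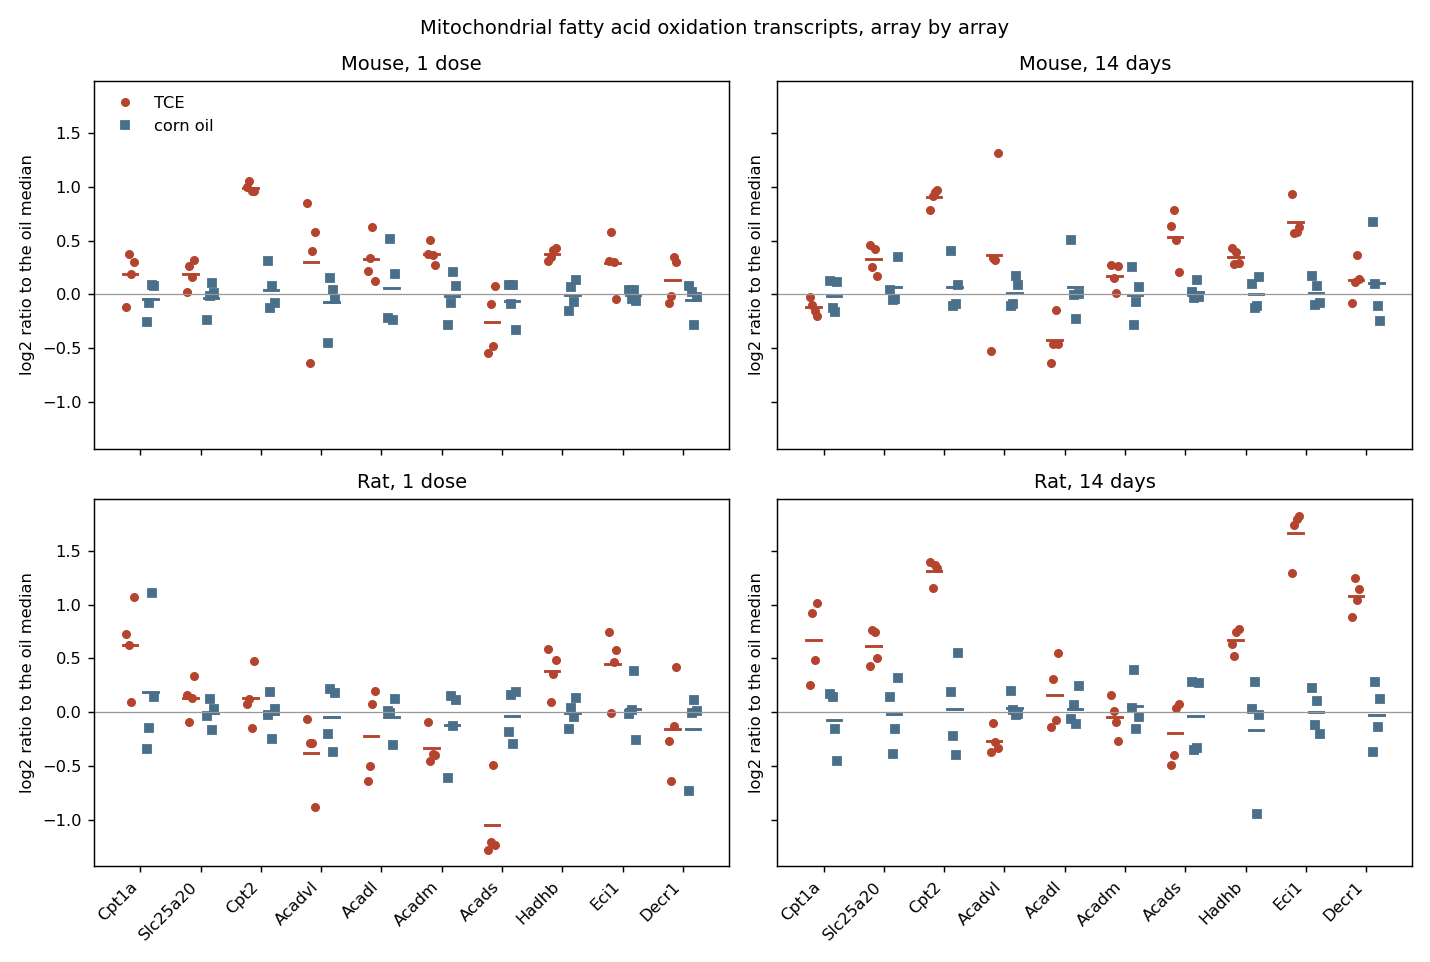
Log2 ratio to the oil median (y axis) of the 10 members in the order of the pathway (x axis) for 4 TCE arrays (circles) and 4 corn oil arrays (squares) in each species and schedule, with bars at the group means. In rat after 14 days the TCE arrays of Cpt1a, Slc25a20, Cpt2, Hadhb, Eci1 and Decr1 lie above all oil arrays, and those of Acadvl below. In rat after 1 dose only the TCE arrays of Acads lie apart from the oil arrays, on the low side.

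The mean log2 ratio of the 10 members on each array summarised the same picture. It was 0.23 to 0.33 on the TCE arrays and -0.11 to 0.03 on the oil arrays of mouse after 1 dose. After 14 days it was 0.22 to 0.33 on the TCE arrays of mouse and -0.08 to 0.22 on its oil arrays, of which replicate 1, the oil array with the high Gapdh value, was the highest. In rat it was -0.24 to 0.10 on TCE arrays and -0.23 to 0.07 on oil arrays after 1 dose, which overlapped. After 14 days in rat the TCE arrays had 0.40 to 0.66 and the oil arrays -0.23 to 0.08.

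**Figure D2:**
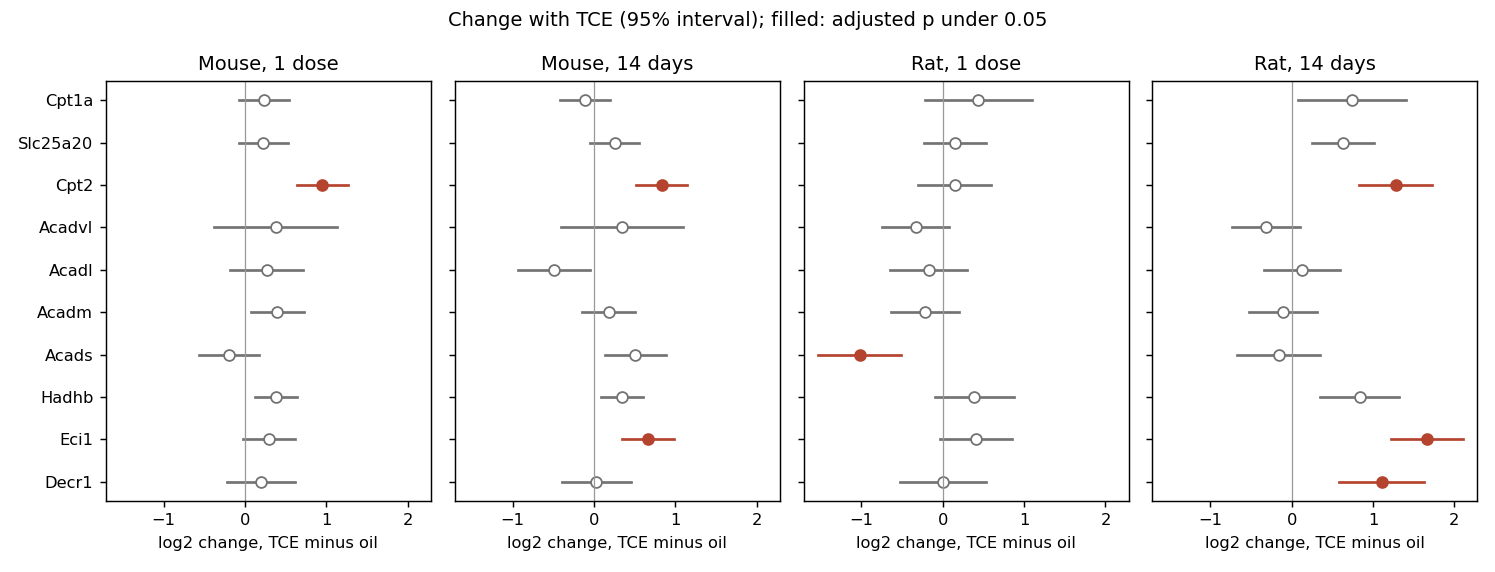
Log2 change (TCE minus oil, x axis) of each member with its 95% interval from limma in the 4 comparisons, filled where the adjusted p was under 0.05. Cpt2 is filled in 3 panels at 0.95, 0.83 and 1.28, and Acads in rat after 1 dose is the only filled value below 0.

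Promoter sequences are shown for Cpt2 and Eci1, which rose in both species, and for Cpt1a, the regulated entry step that did not pass the test. They are shown because the receptor named above binds repeats of the hexamer AGGTCA. For Cpt2 and Eci1 they are the 250 bases before the start of the mouse gene in RefSeq's table for GRCm38.p6. For Cpt1a they are 250 bases that begin downstream of that gene's annotated start. All are written 5′ to 3′ on the gene's strand. The window is chr4:107923590-107923839 on the minus strand for Cpt2, chr17:24426433-24426682 on the plus strand for Eci1 and chr19:3323051-3323300 on the plus strand for Cpt1a. The window of Cpt1a lies inside the annotated span of that gene (chr19:3322326-3385735), and those of Cpt2 and Eci1 adjoin theirs (chr4:107903982-107923589 and chr17:24426683-24439316). Capitals mark each AGGTCA or GGGCGG (a GC box) on either strand.
Cpt2: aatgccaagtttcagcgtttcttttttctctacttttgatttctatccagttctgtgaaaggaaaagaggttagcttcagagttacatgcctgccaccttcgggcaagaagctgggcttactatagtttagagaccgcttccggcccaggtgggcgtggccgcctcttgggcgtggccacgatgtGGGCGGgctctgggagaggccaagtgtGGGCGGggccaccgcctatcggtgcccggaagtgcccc
Eci1: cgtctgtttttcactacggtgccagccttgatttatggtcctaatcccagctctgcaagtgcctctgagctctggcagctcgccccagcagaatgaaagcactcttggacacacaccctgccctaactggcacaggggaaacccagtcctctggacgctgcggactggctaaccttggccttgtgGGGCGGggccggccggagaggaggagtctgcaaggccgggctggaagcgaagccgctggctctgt
Cpt1a: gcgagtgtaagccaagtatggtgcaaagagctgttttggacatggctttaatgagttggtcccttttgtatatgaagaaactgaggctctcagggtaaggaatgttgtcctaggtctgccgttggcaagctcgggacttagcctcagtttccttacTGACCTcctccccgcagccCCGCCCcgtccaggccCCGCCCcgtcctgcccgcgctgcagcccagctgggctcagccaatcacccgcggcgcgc
The 9 members with an entry were searched on both strands, Decr1 having none. The hexamer AGGTCA occurred in 3 of 9 (Acadm, Acadvl and Cpt1a) and in 14.0% of 32851 promoters of the same length, and not in these windows of Cpt2 or Eci1. The direct repeat of that hexamer, with 1 base of any kind between both copies, occurred in 0 of 9 and in 0.0335% of all promoters, and a looser form with any base at the fourth position of each copy in 0 of 9 and 0.338%. GGGCGG occurred in 7 of 9 (Acadl, Acads, Cpt1a, Cpt2, Eci1, Hadhb and Slc25a20) and in 32.7% of all, CCAAT in 1 of 9 (Cpt1a) and 33.8%, and TATAAA in 0 of 9 and 12.4%. These counts describe letters in short windows: a receptor element can lie farther away.

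Cpt2, the matrix transferase, rose in mouse on both schedules. After 1 dose its ratios in mouse (probe set 95646_at) were 2.0, 2.08, 1.94 and 1.95 on the TCE arrays, against 1.24, 0.913, 1.06 and 0.943 on the oil arrays. After 14 days they were 1.72, 1.89, 1.93 and 1.96 with TCE, against 1.32, 0.925, 0.937 and 1.06 with oil. Every TCE array was higher than every oil array, and the 4 TCE arrays of each schedule lay closer together than the oil arrays. The log2 change was 0.95 ± 0.15 after 1 dose (SE, 4 arrays a group; limma adjusted p = 0.00219) and 0.83 ± 0.15 after 14 days (adjusted p = 0.00461), or 1.93-fold and 1.78-fold. Without the arrays of high Gapdh value, which leaves 1 TCE array a schedule, the changes were 1.01 (adjusted p = 0.155) and 0.82 (adjusted p = 0.189). With that value as a covariate over all 16 arrays they were 0.81 (adjusted p = 0.0295) and 0.76 (adjusted p = 0.00699). A second mouse probe set of Cpt2 (161978_r_at) gave 0.082 ± 0.39 and 0.33 ± 0.39 with adjusted p of 0.932 and 0.637, and its arrays overlapped. Averaging both probe sets lowered the changes to 0.52 (adjusted p = 0.122) and 0.58 (adjusted p = 0.0758).

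In rat, Cpt2 rose after 14 days and was near the oil level after 1 dose. After 14 days its ratios (probe set J05470_at) were 2.63, 2.23, 2.58 and 2.53 on the TCE arrays, against 1.14, 0.858, 0.758 and 1.47 on the oil arrays. After 1 dose they were 1.06, 1.09, 0.901 and 1.39 with TCE, against 0.980, 1.14, 0.840 and 1.02 with oil. The groups did not overlap after 14 days, where the lowest TCE array was well above the highest oil array, and they overlapped after 1 dose. The log2 change was 1.28 ± 0.21 after 14 days (limma adjusted p = 0.00664; 2.43-fold) and 0.15 ± 0.21 after 1 dose (adjusted p = 0.733; 95% interval -0.3 to 0.6). Without the rat arrays of high Gapdh value on both schedules the 14-day change was 1.25 (adjusted p = 0.0451).

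Cpt1a, the step that malonyl-CoA inhibits, did not pass the test in any of the 4 comparisons. In mouse its ratios (93320_at) were 0.922, 1.3, 1.14 and 1.23 with TCE, against 0.834, 0.947, 1.06 and 1.05 with oil after 1 dose. After 14 days they were 0.984, 0.931, 0.9 and 0.867 with TCE, against 1.09, 0.917, 0.892 and 1.08 with oil. TCE and oil arrays overlapped on both schedules, and the log2 changes were 0.23 ± 0.14 (95% interval -0.078 to 0.54) and -0.11 ± 0.14 (95% interval -0.42 to 0.2). Both intervals end below the log2 changes of Cpt2 on the same arrays, and the sign after 14 days turned when arrays were centred on their medians (0.049), under quantile normalization (0.062) and without the arrays of high Gapdh value (0.035). In rat, Cpt1a varied more: ratios (L07736_at) were 1.65, 1.54, 1.07 and 2.1 with TCE, against 0.788, 0.9, 2.15 and 1.1 with oil after 1 dose, where 1 oil array was the highest of all. After 14 days they were 1.19, 1.89, 1.4 and 2.02 with TCE, against 1.12, 1.1, 0.899 and 0.730 with oil. All 4 TCE arrays then lay above the oil arrays, the closest by little, and the change of 0.74 ± 0.31 had an adjusted p of 0.204.

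Slc25a20, the carnitine-acylcarnitine carrier between both transferases, had small positive changes in mouse and a larger one in rat after 14 days, none past the threshold. In mouse the changes were 0.23 ± 0.14 after 1 dose and 0.26 ± 0.14 after 14 days (adjusted p = 0.353 and 0.256). In rat after 14 days its ratios (rc_AA800120_at) were 1.34, 1.7, 1.68 and 1.42 with TCE, against 1.1, 0.761, 0.899 and 1.25 with oil. Every TCE array was higher than every oil array, and the change of 0.63 ± 0.18 had a limma adjusted p of 0.0678. After 1 dose the rat change was 0.15 ± 0.18 (adjusted p = 0.693).

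By the smallest root mean square difference of log2 ratio over the 16 arrays of a species, the genes most like mouse Cpt2 were Acaa1a (0.159), Eci2 (0.161) and Acaa1b (0.164), and those most like rat Cpt2 were Sparc (0.31), Ybx3 (0.319) and Gnl3 (0.323). For mouse Cpt1a they were Ell (0.12), Nfyc (0.12) and Ywhaq (0.137), and for rat Cpt1a Ddah1 (0.331), Sst (0.344) and Pola1 (0.35). Replicate SDs were 0.419 and 0.457 for a typical mouse and rat probe set (above), so likeness of this size describes these arrays only.

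Among the acyl-CoA dehydrogenases, Acads, which acts on short chains, was the member that fell. In rat after 1 dose its ratios (J05030_at) were 0.412, 0.433, 0.710 and 0.425 on the TCE arrays, against 0.880, 1.12, 0.815 and 1.14 on the oil arrays. After 14 days they were 0.710, 0.760, 1.03 and 1.05 with TCE, against 1.22, 0.781, 0.795 and 1.21 with oil. All TCE arrays were below all oil arrays after 1 dose, replicate 3 much less so than the other 3, and the groups overlapped after 14 days. The log2 change was -1.02 ± 0.24 after 1 dose (limma adjusted p = 0.0472; 0.49-fold) and -0.16 ± 0.24 after 14 days (adjusted p = 0.768). The call was close to the threshold: it was lost when any 1 of the 8 arrays except TCE replicate 3 was left out, with adjusted p of up to 0.138. It was also lost without the rat arrays of high Gapdh value on both schedules (change -0.96, adjusted p = 0.115).

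The 2 mouse probe sets of Acads did not give the same pattern. Probe set 161469_r_at, the less variable of both, had ratios of 0.686, 0.940, 0.717 and 1.05 with TCE, against 1.06, 0.941, 1.06 and 0.796 with oil after 1 dose. After 14 days it had 1.55, 1.72, 1.42 and 1.16 with TCE, against 1.02, 0.977, 1.1 and 0.983 with oil. Its groups overlapped after 1 dose (-0.2 ± 0.17, adjusted p = 0.533) and did not after 14 days, when the change of 0.51 ± 0.17 had an adjusted p of 0.0735. Probe set 103401_at had 0.481, 0.850, 0.547 and 0.456 with TCE, against 1.07, 1.0, 0.933 and 0.996 with oil after 1 dose, a change of -0.82 ± 0.24 (limma adjusted p = 0.0464). The TCE array nearest the oil arrays, replicate 2, was the TCE array of that group without a high Gapdh value. With that value as a covariate the change of this probe set was -0.31 (adjusted p = 0.534). The call was lost when arrays were centred (adjusted p = 0.0723), on the log2(ratio + 1) scale (adjusted p = 0.0812) and when only the 8 arrays of that schedule were fitted (adjusted p = 0.0635). It held in 1 of the 8 fits that left out 1 array, that without TCE replicate 2, with adjusted p of up to 0.128 in the others, and in 2 of the 9 other alternatives. Without the arrays of high Gapdh value the change was -0.23 (adjusted p = 0.793). After 14 days its change was 0.061 ± 0.24 (adjusted p = 0.894), with overlapping arrays.

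Acadm, the dehydrogenase of medium chains, was above all oil arrays in mouse after 1 dose without passing the test. Its ratios (92581_at) were 1.3, 1.42, 1.29 and 1.21 with TCE, against 0.823, 0.945, 1.16 and 1.05 with oil, a change of 0.4 ± 0.15 (limma adjusted p = 0.117). After 14 days the change was 0.18 ± 0.15 (adjusted p = 0.47) with overlapping arrays. In rat (J02791_at) the changes were -0.22 ± 0.20 after 1 dose and -0.11 ± 0.20 after 14 days, with 95% intervals of -0.63 to 0.2 and -0.52 to 0.31.

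Acadl, the long-chain dehydrogenase, had opposite signs on the 2 mouse schedules. Its ratios (95425_at) were 1.17, 1.26, 1.54 and 1.09 with TCE, against 0.860, 1.43, 0.845 and 1.14 with oil after 1 dose. After 14 days they were 0.641, 0.728, 0.903 and 0.727 with TCE, against 1.42, 0.995, 0.853 and 1.0 with oil. All 4 TCE arrays were above 1 after 1 dose and all 4 below 1 after 14 days, but the groups overlapped on both schedules and neither the change of 0.26 ± 0.21 nor that of -0.49 ± 0.21 passed the test (limma adjusted p = 0.479 and 0.138). In rat the less variable probe set (J05029_s_at) had changes of -0.17 ± 0.22 and 0.13 ± 0.22, and the other (rc_AI639522_at) of -0.54 ± 0.62 and -1.28 ± 0.62, where the wide errors leave a change of either sign possible.

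Acadvl, which takes the longest chains at the inner membrane, was measured poorly in mouse. Its less variable mouse probe set (161623_at) ranged from 0.644 to 1.8 on TCE arrays and from 0.73 to 1.11 on oil arrays after 1 dose, and from 0.696 to 2.49 on TCE arrays and from 0.928 to 1.12 on oil arrays after 14 days. The second (93334_at) had the largest within-group SD of any member, 1.37 log2 units, and the 95% intervals of both probe sets held 0 on both schedules. In rat after 14 days ratios (D30647_at) were 0.775, 0.930, 0.823 and 0.795 with TCE, against 1.15, 1.01, 0.979 and 0.985 with oil. Every TCE array was slightly below every oil array, and the change of -0.31 ± 0.19 was not past the threshold (limma adjusted p = 0.411). After 1 dose the rat change was -0.34 ± 0.19 (adjusted p = 0.366).

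Hadhb, the thiolase subunit, did not pass the threshold in any of the 4 comparisons. In mouse (96913_at) its ratios were 1.24, 1.27, 1.33 and 1.35 with TCE, against 0.897, 1.05, 0.952 and 1.1 with oil after 1 dose. After 14 days they were 1.35, 1.21, 1.31 and 1.22 with TCE, against 1.07, 0.916, 0.929 and 1.11 with oil. All TCE arrays lay above all oil arrays on both schedules, and the changes of 0.38 ± 0.12 and 0.34 ± 0.12 had limma adjusted p of 0.069 and 0.0846. In rat after 14 days its ratios (D16479_at) were 1.55, 1.44, 1.68 and 1.71 with TCE, against 1.02, 1.22, 0.519 and 0.979 with oil. The groups did not overlap, 1 oil array was far below the other 3, and the change was 0.84 ± 0.23 (adjusted p = 0.0614). Of the 8 fits that left out 1 array, 1 was past the threshold, that without oil replicate 2 (0.98, adjusted p = 0.0318). Without oil replicate 3, the lowest oil array, the change was 0.58, and the highest adjusted p was 0.135. Centring the arrays on their medians brought mouse Hadhb past it on both schedules, at 0.48 (adjusted p = 0.0246) and 0.5 (adjusted p = 0.0222). After 1 dose the rat change was 0.39 ± 0.23 (adjusted p = 0.368).

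Eci1, the isomerase that shifts double bonds of unsaturated acyl-CoA, had the largest change of the 10 genes, in rat after 14 days. There its ratios (rc_AI170568_s_at) were 2.45, 3.35, 3.47 and 3.55 on the TCE arrays, against 1.17, 0.923, 1.08 and 0.866 on the oil arrays. After 1 dose they were 1.68, 0.992, 1.38 and 1.49 with TCE, against 0.988, 1.01, 1.3 and 0.838 with oil. The groups were far apart after 14 days, with TCE replicate 1 lowest of the TCE arrays, and overlapped after 1 dose. The log2 change was 1.66 ± 0.21 after 14 days (limma adjusted p = 0.000711; 3.16-fold) and 0.41 ± 0.21 after 1 dose (adjusted p = 0.29). Without the rat arrays of high Gapdh value on both schedules the 14-day change was 1.51 (adjusted p = 0.0237).

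Of the 3 further rat probe sets of Eci1, those named for the same database sequence gave similar 14-day changes: D00729_g_at 1.62 ± 0.28 (limma adjusted p = 0.00784) and D00729_at 1.77 ± 0.53 (adjusted p = 0.0799). These share a target and are no independent evidence. Without the rat arrays of high Gapdh value on both schedules D00729_g_at had a change of 1.38 (adjusted p = 0.0671). The third, rc_AA799541_at, had 1.02, 1.82, 1.11 and 1.6 with TCE, against 0.855, 0.983, 1.02 and 1.46 with oil. Its groups overlapped and its change was 0.35 ± 0.28 (adjusted p = 0.536), so that the probe sets annotated to this gene did not all show the rise.

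In mouse, Eci1 (98527_at) had ratios of 1.91, 1.48, 1.5 and 1.54 on the TCE arrays, against 1.13, 0.931, 1.05 and 0.948 on the oil arrays after 14 days. After 1 dose they were 1.24, 1.5, 1.23 and 0.971 with TCE, against 1.03, 0.973, 1.03 and 0.960 with oil. The groups were separate after 14 days, with TCE replicate 1 highest, and touched after 1 dose, where TCE replicate 4 lay among the oil arrays. The change was 0.66 ± 0.15 after 14 days (limma adjusted p = 0.0143; 1.58-fold) and 0.29 ± 0.15 after 1 dose (adjusted p = 0.248). Fitting only the 8 arrays of that schedule gave an adjusted p of 0.0666. Without the arrays of high Gapdh value the 14-day change was 0.97 (adjusted p = 0.0969), from 1 TCE array.

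Decr1, the reductase needed for polyunsaturated fatty acids, rose in rat after 14 days and stayed near the oil level elsewhere. In rat its ratios (D00569_at) were 1.84, 2.38, 2.06 and 2.21 on the TCE arrays, against 0.771, 1.21, 0.911 and 1.09 on the oil arrays after 14 days. After 1 dose they were 0.829, 0.643, 0.915 and 1.34 with TCE, against 0.6, 0.994, 1.08 and 1.01 with oil. The groups did not overlap after 14 days and overlapped after 1 dose. The log2 change after 14 days was 1.11 ± 0.25 (limma adjusted p = 0.0265; 2.15-fold), and the probe set sharing its target (D00569_g_at) had a change of 1.43 ± 0.40 (adjusted p = 0.0678). The call was lost when oil replicate 1, 3 or 4 or TCE replicate 2 or 4 was left out, with adjusted p of up to 0.0899, and without the arrays of high Gapdh value (change 1.09, adjusted p = 0.0905). With the Gapdh value as a covariate the change was 0.88 (adjusted p = 0.166). In mouse (160711_at) ratios after 14 days were 0.945, 1.09, 1.29 and 1.1 with TCE, against 1.59, 1.07, 0.929 and 0.844 with oil. These overlapped fully, and the changes were 0.032 ± 0.20 after 14 days and 0.19 ± 0.20 after 1 dose, with 95% intervals of -0.39 to 0.45 and -0.23 to 0.61.

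**Figure D3:**
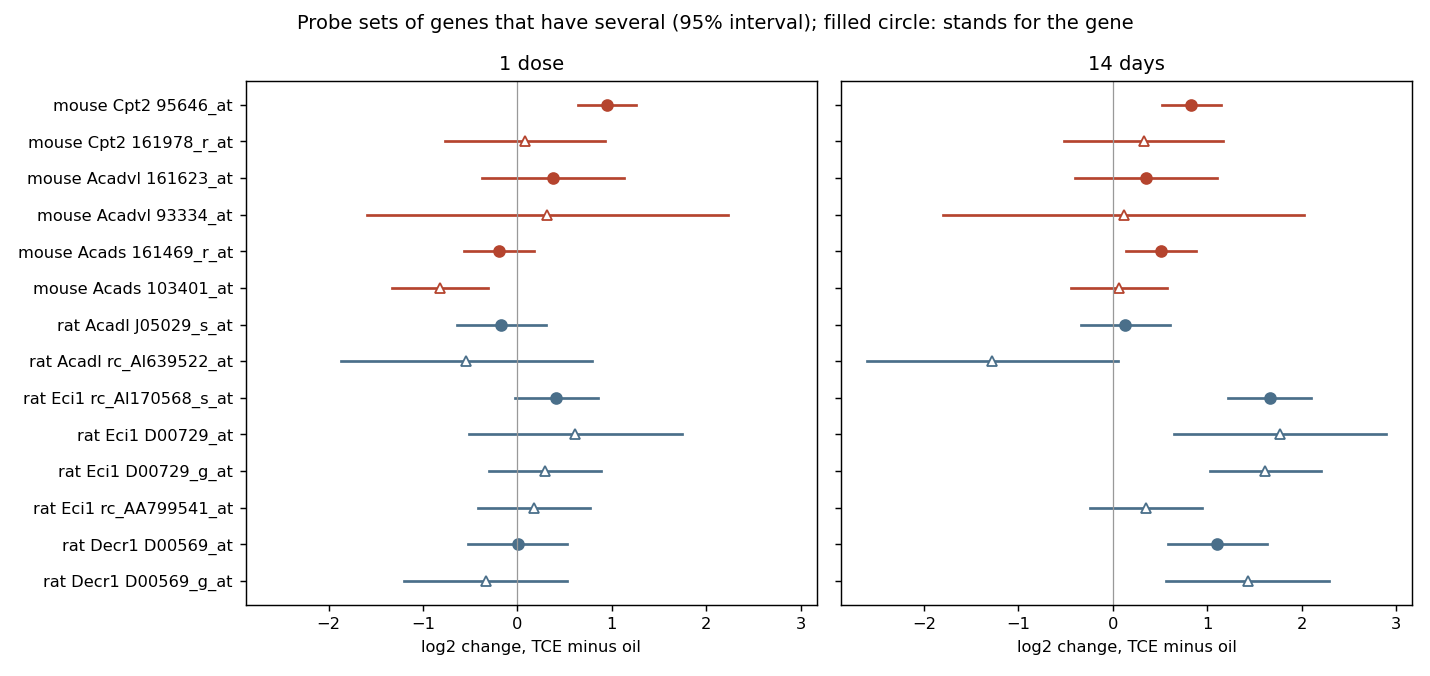
Log2 change (TCE minus oil, x axis) with its 95% interval for each probe set of the member genes that have several (rows, mouse above rat), after 1 dose and after 14 days; filled circles mark the probe set that stands for the gene. The 2 mouse probe sets of Acads sit at -0.20 and -0.82 after 1 dose, and 3 of the 4 rat probe sets of Eci1 sit between 1.62 and 1.77 after 14 days while the other sits at 0.35.

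Whether the response depended on schedule was tested as the 14-day change minus the 1-dose change. No member passed in mouse (0 of 10, against 1.02% of all genes) or in rat (0 of 10, against 0% of all genes). At an unadjusted p under 0.05 there were 2 members in mouse, Acadl and Acads, and 4 in rat, Cpt2, Acads, Eci1 and Decr1. The share of all genes at that limit was not computed, so these counts cannot be set against it. Eci1 in rat had a difference of 1.25 ± 0.29 (95% interval 0.63 to 1.87; limma adjusted p = 0.329). The difference for Cpt2 in rat was 1.13 ± 0.30 (0.5 to 1.77; adjusted p = 0.384), and that for Decr1 1.1 ± 0.35 (0.36 to 1.85; adjusted p = 0.413). All 10 rat members had a positive difference, where 2254 of 4736 genes did. The members' median was 0.47 beside -0.04 over all genes, so the larger 14-day values in rat are a description that the adjusted test does not bear out. In mouse the difference for Cpt2 was -0.12 ± 0.21 (95% interval -0.56 to 0.32). The mouse difference was -0.76 ± 0.29 for Acadl and 0.71 ± 0.25 for Acads (adjusted p = 0.179 and 0.139).

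Whether mouse and rat responded differently was tested as the mouse change minus the rat change over the 3056 gene symbols on both arrays. Each species had its own array and probe sets, so a species difference in this test cannot be told apart from a difference of arrays or probe sets. After 14 days Eci1 and Decr1 had smaller changes in mouse than in rat: 2 of 10 members were called, both lower, where 10.5% of shared genes were called and 8.51% called lower. Eci1 changed by 0.66 in mouse and by 1.66 in rat, a difference of -1.0 ± 0.24 (95% interval -1.5 to -0.5; limma adjusted p = 0.00861). Decr1 had changes of 0.032 in mouse and 1.11 in rat, a difference of -1.08 ± 0.31 (95% interval -1.71 to -0.44; adjusted p = 0.0236). Both calls were lost without the arrays of high Gapdh value, at -0.54 (adjusted p = 0.444) and -1.09 (adjusted p = 0.148). That of Eci1 was lost when its probe sets were averaged (-0.69, adjusted p = 0.102). That of Decr1 was lost when arrays were centred on their medians (-0.88, adjusted p = 0.0856), without oil replicate 1 of mouse (-0.89, adjusted p = 0.0597) and without oil replicate 1 of rat (-0.96, adjusted p = 0.0597).

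Cpt2, which rose in both species after 14 days, had a species difference of -0.45 ± 0.24 there (95% interval -0.95 to 0.053; limma adjusted p = 0.243). After 1 dose no member passed (0 of 10, against 4.22% of shared genes). Unadjusted p was under 0.05 for 3 members, Cpt2, Acadm and Acads, each higher in mouse, and the share of shared genes at that limit was not computed. Cpt2 had changes of 0.95 in mouse and 0.15 in rat after 1 dose, a difference of 0.8 ± 0.24 (95% interval 0.3 to 1.3; adjusted p = 0.0587). The 1-dose difference for Acads was 0.82 ± 0.29 (adjusted p = 0.0961) and for Acadm 0.61 ± 0.24 (adjusted p = 0.128). Centring the arrays brought these 3 past the threshold, Cpt2 at 1.02 (adjusted p = 0.0253). The median difference of the members was 0.31 after 1 dose, beside -0.19 over shared genes, and -0.47 after 14 days, beside -0.23.

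**Figure D4:**
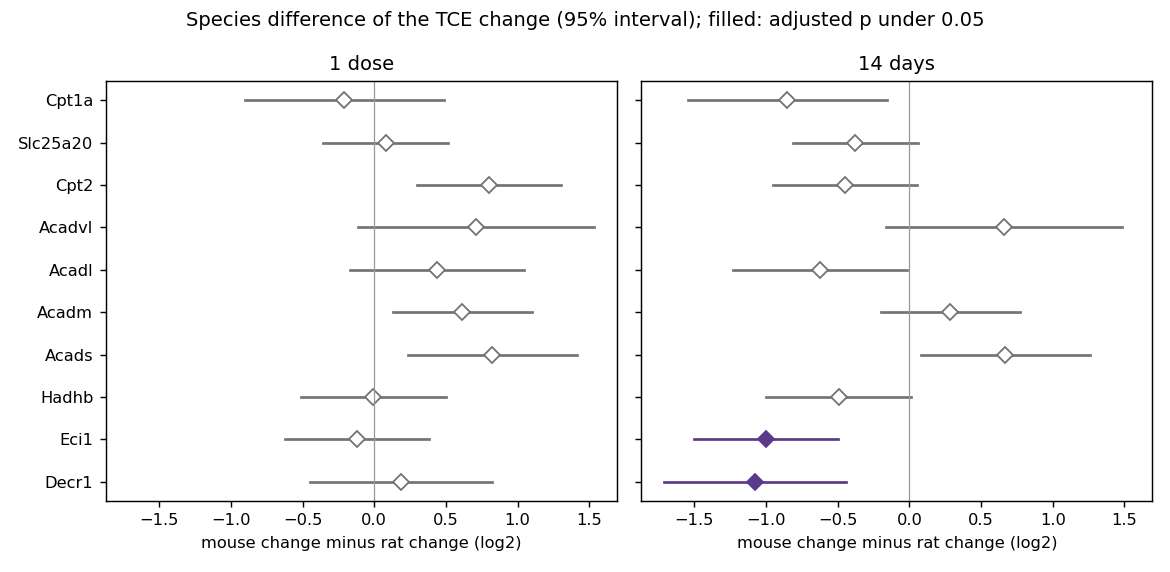
Mouse change minus rat change (log2, x axis) of each member with its 95% interval after 1 dose and after 14 days, filled where the adjusted p was under 0.05. Eci1 and Decr1 are filled after 14 days at -1.0 and -1.08, whereas Cpt2 sits at 0.80 after 1 dose and at -0.45 after 14 days.

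Of 15 further genes of mitochondrial beta-oxidation and electron transfer, 10 were measured in mouse and 12 in rat. In mouse after 1 dose 2 rose (4.74% of all genes did), Eci2, a second enoyl-CoA isomerase, by 0.95 ± 0.18 and Crat, the carnitine transferase of short acyl groups, by 0.90 ± 0.21 (limma adjusted p = 0.00768 and 0.0208). After 14 days in mouse Eci2 rose by 0.67 ± 0.18 (adjusted p = 0.0345) and Etfa, which passes electrons from the dehydrogenases to the respiratory chain, changed by -0.73 ± 0.18 (adjusted p = 0.0213). In rat 1 fell after 1 dose, Echs1, the enoyl-CoA hydratase, at -1.29 ± 0.28 (adjusted p = 0.0409), and 1 rose after 14 days, Acsl1, which activates long-chain fatty acids, at 0.71 ± 0.16 (adjusted p = 0.0279). Over all genes, 2.39% rose and 9.42% fell in mouse after 14 days, 0.528% fell in rat after 1 dose and 2.32% rose in rat after 14 days. None of these 6 changes was called without the arrays of high Gapdh value (adjusted p of 0.0948 to 0.300), and leaving out 1 array kept the call of Echs1 in 1 of 8 fits, that of Eci2 after 14 days in 2, that of Acsl1 in 4, that of Crat in 6 and that of Etfa in 7. The medians of this list were -0.09 and 0.10 in mouse and 0.24 and 0.15 in rat, after 1 dose and 14 days. Of 4 ketone body genes, 2 were measured in rat and none of these passed the test, and no mouse gene of that list was measured.

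Genes that control entry into the pathway were measured in part (5 of 8 in mouse, 4 of 8 in rat). In mouse after 1 dose Ppara, the receptor itself, rose by 0.56 ± 0.14 and Nrip1, a corepressor of nuclear receptors, by 1.04 ± 0.18, while Rxra, the partner of PPARα, fell by 0.54 on the log2 scale (limma adjusted p = 0.0270, 0.00390 and 0.0379). After 14 days in mouse Nrip1 rose by 0.97 ± 0.18 (adjusted p = 0.00574), and no gene of this list passed in rat. Nrip1 was called in all 8 fits that left out 1 array on each schedule, Ppara and Rxra in 2 of 8 each, and none of the 4 changes was called without the arrays of high Gapdh value (adjusted p of 0.184 to 0.518).

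Peroxisomal beta-oxidation is the nearest other route for fatty acids. Of 15 genes 11 were measured in mouse, where 5 rose after 1 dose and 5 after 14 days, against 4.74% and 2.39% of all genes, and 10 in rat, where 0 rose after 1 dose and 4 after 14 days, against 1.16% and 2.32%. Ehhadh, the bifunctional enzyme, rose in mouse by 2.02 ± 0.17 after 1 dose and 2.35 ± 0.17 after 14 days, and in rat by 1.48 ± 0.31 after 14 days. Acaa1b, a peroxisomal thiolase, rose in mouse by 1.0 ± 0.16 and 1.02 ± 0.16 on the 2 schedules, and in rat by 3.37 ± 0.30 after 14 days. Without the arrays of high Gapdh value, Ehhadh stayed past the threshold in mouse on both schedules (adjusted p = 0.0465 and 0.0240) and had 0.0547 in rat, while Acaa1b stayed past it in rat (adjusted p = 0.00232) and had 0.149 and 0.0885 in mouse. In rat after 14 days without those arrays, Pex11a stayed past the threshold (limma adjusted p = 0.0106) and Ech1 did not (adjusted p = 0.0688). Leaving out 1 array kept the call of Hsd17b4 in mouse after 1 dose in 1 of 8 fits. In mouse after 14 days it kept that of Ech1 in 1 of 8 and that of Pex11a in 5. The rat call of Ehhadh was kept in 5 of 8 fits, and the other calls of this list in all 8. The list's medians were 0.33 and 0.40 in mouse and 0.29 and 0.81 in rat. Respiratory chain and other genes of mitochondrial content (18 of 20 measured in mouse, 12 in rat) had medians of -0.15 and -0.24 in mouse and -0.19 and 0.02 in rat. In mouse 2 of them fell after 1 dose (Ndufa9 and Sdha) and 4 after 14 days (Cox6c, Atp5a1, Sdha and Cycs), against 4.57% and 9.42% of all genes, and none passed in rat. Sdha, a subunit of succinate dehydrogenase, changed by -1.0 ± 0.16 and -0.90 ± 0.16. Without the arrays of high Gapdh value none of these 6 calls remained (adjusted p of 0.137 to 0.752), and leaving out 1 array kept that of Ndufa9 in 1 of 8 fits and that of Atp5a1 in 0.

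The 7 member changes past the threshold kept their sign under each alternative shown in the plot of settings, but not their calls. Under quantile normalization none of the 7 was called, the closest being Eci1 in rat after 14 days (1.24, limma adjusted p = 0.0541). That setting left few calls of any probe set. After 14 days, higher and lower calls went from 278 and 1053 to 6 and 1 in mouse, and from 189 and 57 to 7 and 0 in rat. The loss is therefore not particular to the members. Cpt2 and Eci1 in rat after 14 days were called under all other alternatives, and leaving out any 1 array ended no call of Cpt2 or Eci1 in these comparisons.

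**Figure D5:**
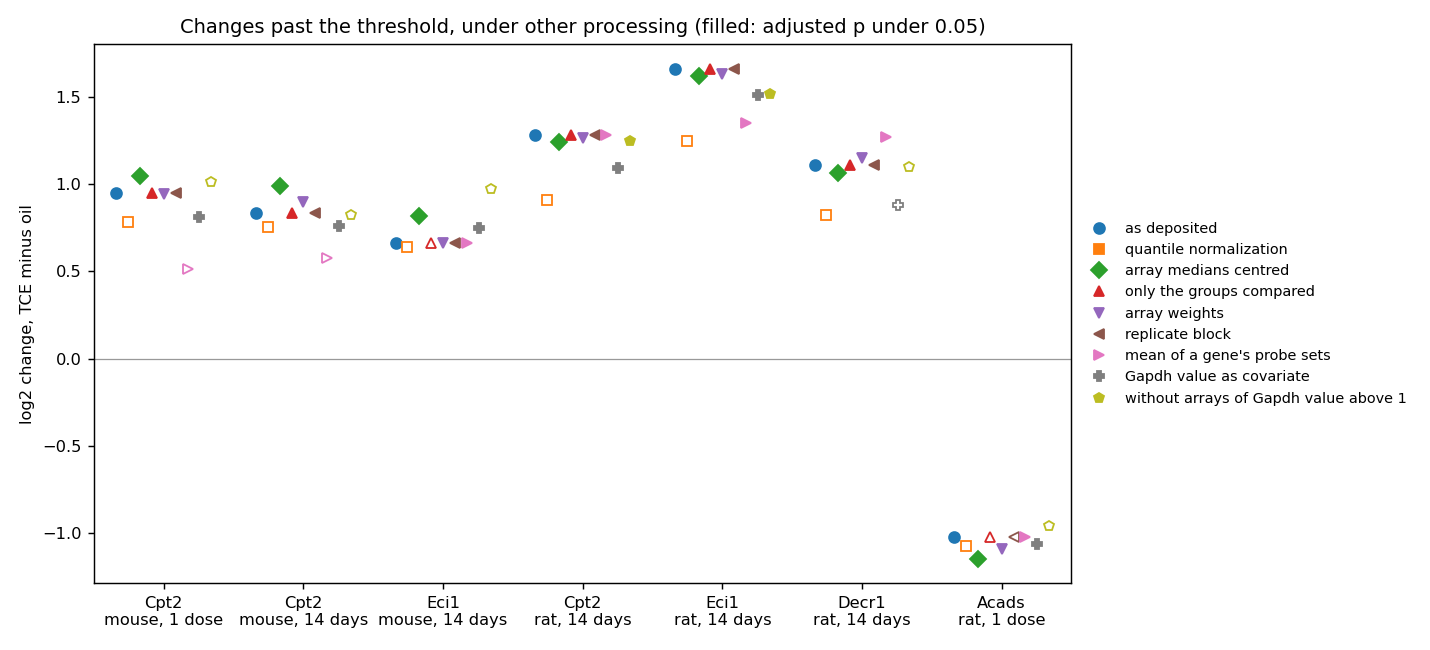
Log2 change (TCE minus oil, y axis) of the 7 member changes past the threshold (x axis) as deposited and under 8 alternatives, filled where the adjusted p was under 0.05. Quantile normalization (open squares) leaves all 7 unfilled, while Cpt2 and Eci1 in rat after 14 days are filled under the other 7.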

How the data were processed

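Liver RNA of 16 mouse and 16 rat samples was measured on Affymetrix arrays. Per the submitters' processing notes the signals come from MAS5, with no version stated there. What the authors deposited are ratios to oil. This was found from the values: in each species and schedule the 4 oil arrays had a median of 1 (within 0.002) for all complete probe sets. That division cancels in each TCE minus oil contrast. The deposited ratios hold no signal level, so no filter on dim probe sets, floor or comparison of levels between genes was possible; precision is limited by how many arrays there are. Control probe sets (66 mouse, 59 rat) were left out of all tests. Missing values numbered 2 in mouse and 11 in rat, none in members.

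A limma model (version 3.58.1, R 4.3.3; lmFit, then eBayes) was run on log2 ratios with 1 mean for each group, using the 16 arrays of 1 species or, for the species difference, all 32. Contrasts were TCE minus oil per schedule, the 14-day minus the 1-dose change and the mouse minus the rat change. P-values were adjusted by Benjamini-Hochberg across all 12422 mouse or 8740 rat probe sets, or 3056 shared genes, with a threshold of 0.05. The model was tested on simulated data. Array control measures were compared with two-sided exact permutation tests (scipy 1.17.1).

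Genes were named from GEO's platform annotation, from probe sets with 1 symbol (10833 of 12422 in mouse, 7006 of 8740 in rat, where 396 and 308 had several and 1193 and 1426 none). The probe set with the smallest pooled within-group SD stood for a gene. Named were the 10 members in every probe set, up to 4 genes past the threshold per pathway list and comparison, and the 3 genes most like Cpt1a and Cpt2. The members and lists were chosen with earlier results of these data known. Arrays within a group had at most 0.225% of values in common, so none was counted as a duplicate. Alternatives were quantile normalization, centring, log2(ratio + 1), a filter on the noisiest 40% of probe sets, fitting only the groups compared, a replicate block, array weights, averaging all probe sets of a gene, the Gapdh value as a covariate, leaving out arrays where it was above 1, and leaving out each array. Python 3.11.15 with matplotlib 3.10.9 drew the figures.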

Additional observations from a re-analysis of the deposited data

Results flagged for a closer look

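In 5 of the 80 groups of 4 arrays (10 members by 8 groups), 1 array lay far from the other 3, and chance flags about 1 group in 20. Eci1 had 2 such arrays: TCE replicate 1 of mouse after 14 days, the highest at a ratio of 1.91, and TCE replicate 1 of rat after 14 days, the lowest at 2.45. Acads had 0.71 on TCE replicate 3 of rat after 1 dose, nearer the oil arrays than the other 3 TCE arrays. Acadm had 0.94 on TCE replicate 1 of rat after 1 dose, and Decr1 had 0.6 on oil replicate 1 of rat after 1 dose. The 14-day change differed between mouse and rat by the test of the difference for Eci1 (mouse minus rat, -1.0) and for Decr1 (-1.08).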

How the results depend on the processing

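The members called numbered 1 and 2 in mouse after 1 dose and 14 days, 1 and 3 in rat, 0 and 0 for the schedule differences, and 0 and 2 for the species difference after 1 dose and 14 days. Quantile normalization gave 0 in every comparison. Centring gave 2, 4, 1 and 3 in the TCE comparisons and 3 and 1 for the species difference; log2(ratio + 1) gave 2, 2, 0 and 5, and 1 and 2; without the noisiest 40% of probe sets there were 2, 3, 1 and 5, and 2 and 2. Array weights gave 2 in mouse after 1 dose and 2 for the 1-dose species difference, and fitting only the groups compared gave 1 in mouse after 14 days and 0 in rat after 1 dose (for the schedule differences this is the same fit). Averaging all probe sets of a gene gave 0 and 1 in mouse and 1 for the 14-day species difference. Without arrays of high Gapdh value there were 0, 0, 0 and 2, and 0 for the 14-day species difference; 1 TCE array was then left in each mouse schedule, its spread taken from the other groups, and 3 and 2 in rat, and the cause was not tested. Leaving out each array gave 0 to 1 in rat after 1 dose, 2 to 4 in rat after 14 days, and 0 to 1 and 1 to 2 for the species differences; the counts in mouse stayed at 1 and 2. The schedule differences had 0 under every alternative run.

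Replicate numbers did not pair the arrays (correlation of same-numbered arrays -0.173 to 0.0784 over 16 pairs, 0 above 0.1). With the number as a replicate block the counts were 1, 2, 0 and 3, Acads in rat after 1 dose having an adjusted p of 0.0779 in limma; Acads probe set 103401_at in mouse after 1 dose had 0.0773, and no other call of a member gene changed.

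Centring moved the median of all probe sets in mouse after 14 days by over 0.1, to 0.00 with centring against -0.15 as deposited, in rat after 1 dose to 0.02 against 0.14, and for the species differences to 0.03 against -0.19 (1 dose) and -0.03 against -0.23 (14 days). The split of higher and lower calls over all probe sets became 721 and 355 (517 and 514 as deposited) in mouse after 1 dose, 475 and 506 (278 and 1053) in mouse after 14 days, 77 and 107 (106 and 44) in rat after 1 dose, 110 and 37 (46 and 83) for the 1-dose species difference and 88 and 135 (61 and 260) for the 14-day one. Quantile normalization gave 43 and 16, 6 and 1, 2 and 0, 7 and 0 in the TCE comparisons and 5 and 2, and 4 and 2, for the species differences.

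Values that changed sign had not passed the test, and the cause was not tested. With the Gapdh covariate they were, in mouse, Acadvl -0.27 and Decr1 -0.15 after 1 dose, Decr1 -0.14 after 14 days and 0.0090 for its schedule difference; in rat, Decr1 -0.059 after 1 dose and Acadl -0.12 and Acadm 0.017 after 14 days; and the 1-dose species difference of Decr1, -0.080. Without arrays of high Gapdh value they were mouse Acadvl -0.56 and -0.58 on the 2 schedules and Cpt1a 0.035 after 14 days, rat Decr1 -0.19 after 1 dose and Acadm 0.025 after 14 days, and the 1-dose species difference of Eci1, 0.22. Quantile normalization turned mouse Cpt1a after 14 days (0.062), rat Cpt2 (-0.020) and Decr1 (-0.0067) after 1 dose and the species difference of Eci1 (0.065); centring turned mouse Cpt1a (0.049), rat Decr1 after 1 dose (-0.12) and that of Eci1 (0.099). Array weights gave rat Decr1 after 1 dose -0.032. The mean of probe sets gave it -0.17, rat Acadl after 14 days -0.57 and the mouse schedule difference of Cpt2 0.063. Over the arrays left out, Decr1 ranged from -0.085 to 0.22 in mouse after 14 days, from -0.28 to 0.030 for its schedule difference and from -0.19 to 0.16 in rat after 1 dose, and Acadm from -0.18 to 0.0054 in rat after 14 days.

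Alternatives for the pathway genes were chosen after seeing the data. Of their 30 changes past the threshold, 4 were called under quantile normalization, 4 without arrays of high Gapdh value, 18 with only the groups compared, 21 with the Gapdh covariate, 22 with the replicate block and 26 to 30 under the other 5. Signs held except that of Cox6c in mouse after 14 days, 0.14 when its probe sets were averaged.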

Other observations

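In 8 of the 9 mouse promoters with an entry, the share of G and C over the window of 250 bases lay above the median of 52.4% over 32851 promoters, the range being 49.6% (Acadvl) to 68.0% (Acadl). The letters GGGCGG occurred 4 times in the window of Acadl, 3 times in that of Slc25a20 and 2 times each in those of Cpt1a, Cpt2 and Hadhb. Of these 5 genes, Cpt2 was the one called in a comparison of TCE with oil. The second rat probe set of Acadl (rc_AI639522_at) had the lowest 14-day change of any member probe set: ratios were 0.328, 0.351, 0.85 and 0.193 with TCE, against 0.493, 1.02, 0.978 and 1.32 with oil. The arrays overlapped, and the change of -1.28 ± 0.62 had a limma adjusted p of 0.282.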
